A study of Danio rerio with 4 samples.

Results

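The immediate early transcription factors of the AP-1, Egr and C/EBP families were compared between Muller glia of the uninjured zebrafish retina and the progenitors that Muller glia give rise to after injury. Members were the non-control probes whose gene name, current or older, or whose current symbol through their RefSeq identifier, was atf3, egr1, egr2b, fos, fosab, jun, junb, junba, cebpb or cebpd. This gave 12 probes of 8 genes, out of 21495 probes and 8753 named genes on the array. They comprised atf3, jun (2 probes), fosab (2 probes, named fos in the files), junba (3 probes, named junb in the files), egr1, egr2b, cebpb and cebpd. The atf3 and jun probes carry placeholder names in the files and were recognised only through RefSeq. All 12 probes were tested, because each was well above background on all 4 arrays.

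AP-1 is a dimer of basic leucine zipper proteins, in which a Jun protein pairs with a Fos, Jun or Atf protein and binds DNA as a pair. The Egr proteins are zinc finger factors, and the C/EBP proteins form a second family of leucine zipper dimers. Many of these genes are called immediate early because signalling through MAP kinases can switch them on without new protein synthesis, and injury, growth factors and cytokines are among the classic triggers.

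Messenger RNA was measured on 4 single-colour Agilent oligonucleotide arrays, 2 per group. Glia came from uninjured gfap:gfp fish aged 7 months, in which the gfap promoter drives GFP. Progenitors came from 1016 tuba1a:gfp fish aged 7 months on one array and 8 months on the other, in which the tuba1a promoter drives GFP, 4 days after a needle (30G) was pushed into the retina. GFP-positive cells were sorted in both cases. The labels call all 4 samples Muller glia, though the titles of the injured samples read Muller glia derived progenitors. The transgenic line and the injury both differed between the groups and cannot be told apart. The labels call the samples duplicates without saying whether these were separate pools of fish, so the p-values rest on a spread between arrays that may be technical alone. In sorted bulk samples, fewer cells of a type and less RNA per cell cannot be told apart.

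All arrays lay on 1 slide with 1 scan. The 75th percentile of signal ranged from 4289 to 4899, and 71.7% to 82.0% of spots were well above background. Over the 15001 probes well above background on all 4 arrays, correlation of log2 signals was 0.999 within each group and 0.969 to 0.970 between groups. Spike-in controls were brighter on the glia arrays (5287 and 5723) than in the other group (2873 and 2832). All 13 Muller glia markers on the array were tested and were well above background on every array. The same held for all 14 cone, 7 rod and 13 inner retinal neuron markers on the array. Detection of these markers therefore does not tell the cell types apart. Of the Muller glia markers 6 were higher and 4 lower in progenitors, against 27.5% and 40.4% of all genes tested. Cone markers were 13 lower and none higher, rod markers 6 lower and 1 higher, and inner retinal neuron markers 9 lower and 2 higher. The regeneration factor ascl1a was higher by 5.31 ± 0.07 on the log2 scale (SE).

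Every member gene was called higher in progenitors. The call was an adjusted p below 0.05 in limma, with Benjamini-Hochberg adjustment over all 16596 probes tested. Of 7081 genes tested, 27.5% were called higher and 40.4% lower, 67.9% in all. At least 2-fold differences were reached by 7 of the 8 members, against 7.7% of genes tested that were called higher by as much. The median difference was 1.42 over the members and -0.11 over all genes, in log2 units of signal relative to each array's 75th percentile. In all 8 genes both progenitor arrays stood above both glia arrays, as did 34.9% of genes tested. With only 2 arrays per group such a separation is common. The members were chosen with earlier results of these data known, so their contrast with all genes may be partly set by that choice.

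**Figure D1:**
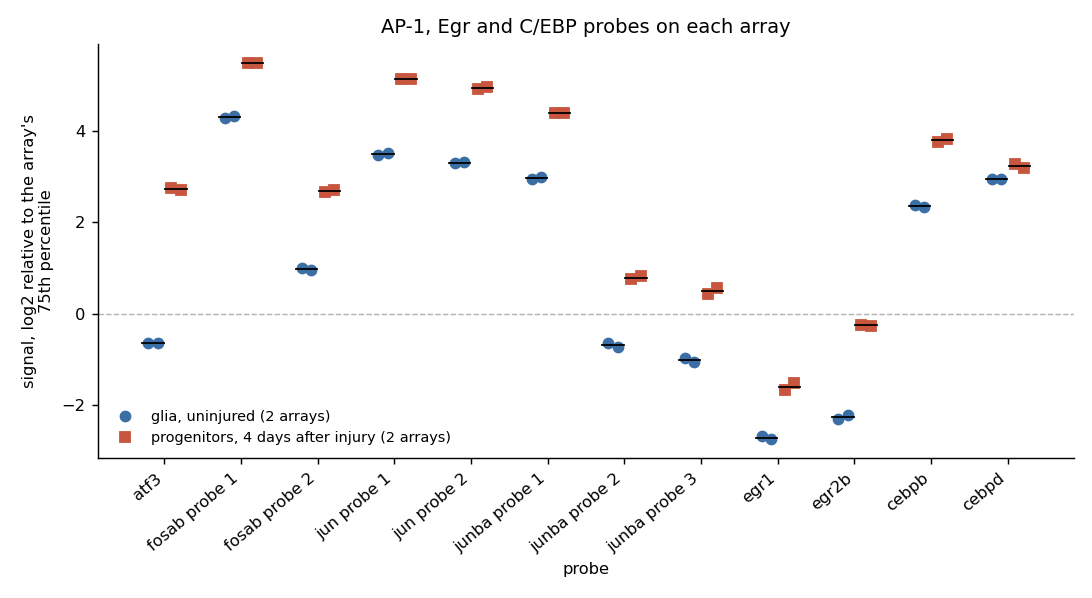
Signal of the 12 member probes on each of the 4 arrays, as log2 relative to the array's 75th percentile (dashed line at 0), with points for arrays, short lines for group means and a gene's probes numbered from the brightest; heights are to be read within a probe, not between probes. The 2 arrays of a group nearly coincide for each probe, and the gap between groups ranges from 0.29 for cebpd to 3.36 for atf3.

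Atf3 is a bZIP protein that pairs with Jun and is known in mammals as a marker of neuronal injury and cell stress. Its processed signal read 2761 and 2852 in glia and 32258 and 31975 in progenitors. The groups were far apart, while the arrays of each group differed little. On the scaled log2 axis the level went from -0.64 ± 0.01 in glia to 2.73 ± 0.03 in progenitors (SD, n = 2 each). The difference was 3.36 ± 0.04 (SE), with a 95% confidence interval from 3.25 to 3.48, and this 10.3-fold rise passed the test (limma, adjusted p = 5.4e-05). Only 56 genes of those tested had a larger difference, so that 99.2% stood at or below atf3. The probe maps to danRer2 chromosome 20, 47742722 to 47742781 on the plus strand. The files give this probe and the others no exon or UTR, and that annotation was not analysed here.

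Jun is the AP-1 subunit that can bind DNA with itself or with Fos and Atf partners. The brighter of its probes (chromosome 20, 14446075 to 14446135, minus strand) gave 47655 and 50774 in glia and 169667 and 172406 in progenitors. Both progenitor arrays were far above both glia arrays. The difference was 1.65 ± 0.04, or 3.13-fold (limma, adjusted p = 0.000137). The other probe shares 30 bases of its position with the first and gave the same difference to 2 decimals, from 42006 and 44356 to 146418 and 154048. Since the probes overlap, they are not independent readings of jun.

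The junba gene encodes a JunB protein, a Jun relative that in mammals can restrain Jun and is itself an AP-1 subunit. Its brightest probe (chromosome 17, 41997020 to 41997079, plus strand) read 33224 and 35634 in glia and 100781 and 103347 in progenitors. This was a 2.67-fold rise, with a log2 difference of 1.42 ± 0.04 (limma, adjusted p = 0.00019). Both other probes of junba lie about 1.1 kb away and share 55 bases with each other. From 41995864 to 41995923 the signal went from 2726 and 2684 to 8075 and 8617, and from 41995869 to 41995928 it went from 2193 and 2129 to 6485 and 7172. These probes were higher by 1.47 ± 0.05 and 1.51 ± 0.07, so the 3 probes of junba gave intervals that overlap, from 1.29 to 1.70 in all.

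Fosab is the Fos subunit, which binds DNA only when paired with a Jun protein. Its brightest probe (chromosome 20, 56830779 to 56830838, minus strand) gave 83966 and 89842 in glia against 217081 and 218910 in progenitors. The groups were separate on this probe. This probe was 2.26-fold higher, by 1.18 ± 0.04 with an interval from 1.05 to 1.30 (limma, adjusted p = 0.000278). The other fosab probe lies 1130 bases away, from 56831969 to 56832143, a span of 175 bases. It read 8594 and 8606 in glia and 30402 and 32150 in progenitors, 3.27-fold higher, by 1.71 ± 0.05 with an interval from 1.57 to 1.85. Intervals of the fosab probes did not overlap, so the size of the fosab rise depended on the probe, and a test of the difference between the probes was not made.

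Both Egr members rose. Egr2b is an Egr zinc finger factor best known in zebrafish for patterning the hindbrain and in mammals for myelination. It read 868 and 948 in glia and 4068 and 4076 in progenitors (chromosome 12, 5688574 to 5688633, plus strand). No array of one group came near those of the other. The rise was 4.04-fold, or 2.01 ± 0.05 with an interval from 1.88 to 2.15 (limma, adjusted p = 0.000119), and 187 genes had a larger difference. Egr1, the factor most often used as a readout of MAP kinase signalling, read 664 and 659 in glia and 1501 and 1709 in progenitors (chromosome 10, 19574963 to 19575022, minus strand). The progenitor arrays differed from each other more for egr1 than for any other member probe, with an SD of 0.12 on the log2 scale. Even so the groups were separate, and the rise was 2.18-fold, or 1.12 ± 0.07 (limma, adjusted p = 0.00102).

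**Figure D2:**
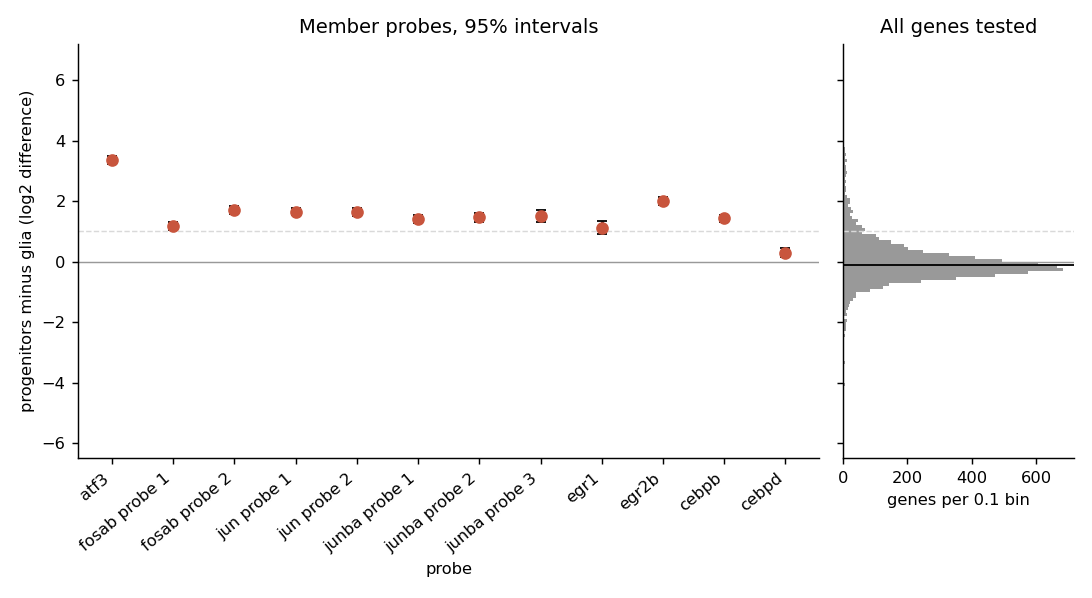
Left, log2 difference of progenitors minus glia for each member probe with its 95% confidence interval from limma; the dashed line marks 2-fold. Right, the same difference for all 7081 genes tested, counted in bins of 0.1, with the median of -0.11 as a line; 11 of 12 member probes lie above the 2-fold line, against 7.59% of probes tested that were called higher by as much.

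The C/EBP members moved by very unequal amounts. Cebpb, which in mammals responds to interleukin signalling and acts in the acute phase response, read 22341 and 22617 in glia and 65546 and 69063 in progenitors. Its groups were separate, and it was 2.69-fold higher, by 1.43 ± 0.05 (limma, adjusted p = 0.000207). The files give no position for this probe. Cebpd, a close relative with similar inducers in mammals, read 33056 and 34217 in glia and 46789 and 44873 in progenitors (unplaced sequence, 123570806 to 123570865, minus strand). After scaling, the groups were 2.94 ± 0.0034 and 3.24 ± 0.06 (SD, n = 2 each), a gap that is narrow but wider than the spread of either group.

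The cebpd rise was 1.23-fold, or 0.29 ± 0.05 with an interval from 0.15 to 0.44 (limma, adjusted p = 0.0104). Among all genes 77.0% stood at or below it. With each array scaled on its median, the cebpd difference was 0.07 and did not pass (adjusted p = 0.348), and with normexp background correction it was 0.32 and did not pass (adjusted p = 0.0538). Leaving out 1 array at a time left its adjusted p at 0.0495 or less, a bare pass. The other 7 genes kept their call and direction under every alternative run. Their smallest differences under any of these were for egr1, with normexp (0.899) and with median scaling (0.901).

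**Figure D3:**
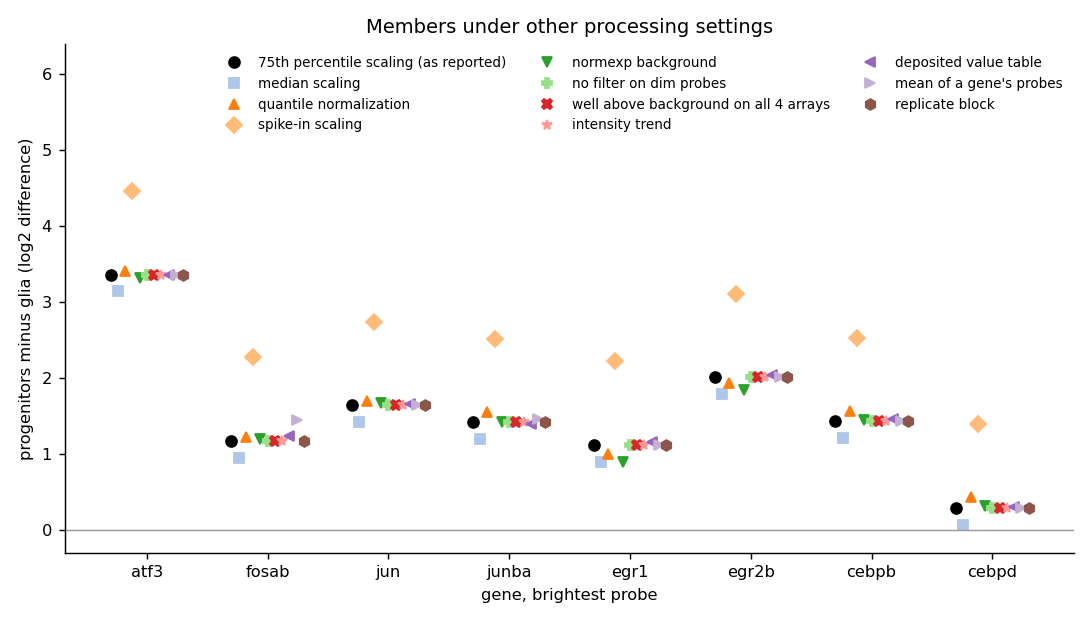
Log2 difference of progenitors minus glia for each member, as reported (black) and under 10 other processing settings. Values are for the brightest probe, except in the setting that takes the mean of a gene's probes. The settings that leave out 1 array are not drawn. The other genes stay well above 0, cebpd comes down to 0.07 with median scaling, and scaling on spike-in controls raises every gene, atf3 to 4.46.

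The jun, atf3 and fosab genes lie on danRer2 chromosome 20. They are not neighbours, with 33.3 Mb between jun and atf3 and 9.09 Mb between atf3 and fosab. Of 301 genes tested on chromosome 20, 20.3% were called higher.

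Few other genes of the same families were on the array, and 5 of the 6 tested were called higher, against 27.5% of all genes tested. Both other Fos and Jun genes tested were called higher. The fosb signal, from another Fos family gene, was 2.76 ± 0.07 higher, and that of junbb, the second zebrafish JunB gene, was 1.07 ± 0.09 higher. The Egr gene egr2a was the only other one tested, and it was higher by 1.63 ± 0.04, next to 2.01 for its paralog egr2b. Of 3 other C/EBP genes tested, cebp1, a myeloid C/EBP gene of zebrafish, rose by 1.53 ± 0.04 and cebpa, known for myeloid and liver differentiation, by 0.93 ± 0.10. With normexp neither was called, and the cebpa value turned to -0.16. Mean scaled log2 signal of the 3 genes was only -3.21 and -3.27 in glia and -2.45 and -2.48 in progenitors. Some of these probes were therefore dim, though all 3 were well above background on every array. The third, cebpg, stood at -0.14 and did not pass (limma, adjusted p = 0.0574), and of its other probes one stood at -0.06 and did not pass, while the other was called lower at -1.22.

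The wider list of other bZIP genes did not move one way. Over all genes tested 27.5% were called higher and 40.4% lower, the shares to set beside the counts of this list and of those below. Of 15 tested on this list, 5 were called higher and 7 lower, with a median difference of -0.06. These counts were fragile: with normexp 2 were higher and 1 lower, with spike-in scaling 14 and 1, and the lower count was 3 without glia replicate 2 and 4 without glia replicate 1 or progenitors replicate 1. With median scaling 3 were higher, and with no filter on dim probes 4 were lower. The risen ones included jdp2b (1.71 ± 0.05), a Jun dimerisation partner that represses AP-1 targets in mammals, nfe2l1a (1.81 ± 0.04), mafbb (1.09 ± 0.04) and mafgb (0.40 ± 0.05). Among the lower ones, nfe2, an erythroid and megakaryocyte factor in mammals, stood at -1.80 ± 0.05, and the stress factor atf4a at -0.49 ± 0.05. Smaller decreases were those of mafaa (-0.33 ± 0.05) and atf1 (-0.21 ± 0.04, its brightest probe). Another atf1 probe was called lower at -0.31 ± 0.04 (limma, adjusted p = 0.00545). The atf1 values under other settings given below are those of its brightest probe. Of 10 erythrocyte markers tested, 8 were also lower and none higher (summed signal 65.5 and 64.8 in glia, 33.3 and 34.1 in progenitors, in units of the 75th percentile), and their part in the nfe2 value was not tested. With normexp nfe2l1a (0.87), mafgb (0.19), nfe2 (-1.45), mafaa (-0.44) and atf1 (-0.18) lost their calls. The mafgb call was also lost with median scaling (0.18), and that of atf1 with quantile normalization (-0.12) and without any 1 of the 4 arrays. The decreases of atf4a, mafaa and atf1 turned into increases when arrays were scaled on spike-in controls.

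The kinases and nuclear factors upstream of immediate early genes showed no common direction. Of 17 tested, 3 were higher and 6 lower, and their median was -0.11, the same as that of all genes. With spike-in scaling all 17 were higher, with median scaling 10 were lower, and with normexp or without glia replicate 1 the lower count was 2. The p38 gene mapk11 was higher by 0.65 ± 0.05. The ERK gene mapk3 (-0.28 ± 0.06), the p38 genes mapk14b (-0.41 ± 0.06) and mapk12a (-0.28 ± 0.05) and the p38 activator map2k6 (-0.56 ± 0.07) were lower, and all of these turned positive with spike-in scaling. The calls of mapk3 and mapk12a were lost with normexp (-0.27 and -0.63). Both were lost without glia replicate 1, that of mapk3 also without progenitors replicate 2, and that of mapk12a also without progenitors replicate 1 and with the deposited value table. The MEK gene map2k1 was higher by 1.05 ± 0.04 on its brightest probe, but its other 4 probes ranged from -0.66 to 0.34, and the mean over its probes was -0.00864.

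Other immediate early genes moved in both directions. Of 36 tested, 21 were called higher and 11 lower, with a median of 0.45. The lower count was 7 with normexp, and with spike-in scaling all 36 were higher. Among those called higher were socs3b, a feedback inhibitor of Jak and Stat signalling (3.18 ± 0.04), its paralog socs3a (1.76 ± 0.04), gadd45bb, a stress sensor (2.96 ± 0.08), and nfkbiaa, an inhibitor of NF-kappaB (2.95 ± 0.08). The lower ones included the MAP kinase phosphatase genes dusp1 (-0.61 ± 0.05) and dusp6 (-0.59 ± 0.04), the light-responsive clock gene per2 (-0.80 ± 0.06) and nfkbiab (-0.68 ± 0.04). All 4 of these turned positive with spike-in scaling, where the median of all genes stood at 0.98.

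Atf3 is also a target of the integrated stress response, in which phosphorylation of a translation factor raises Atf4 protein. Of its 8 genes tested, 2 were higher and 4 lower, and the median was -0.24, whereas with spike-in scaling all 8 were higher. Its genes atf4a and cebpg are also on the lists above. Higher were trib3 (0.69 ± 0.04) and the chaperone gene hspa5 (0.46 ± 0.05). Lower were atf4a, the amino acid enzyme gene asns (-0.53 ± 0.05), vegfaa (-0.33 ± 0.04) and the kinase gene eif2ak1 (-0.41 ± 0.09), and these 4 turned positive with spike-in scaling. The vegfaa call rests on its brightest probe, since its other probes stood at -0.09 and -0.02 and did not pass, and it was lost over the mean of its probes (-0.15). The eif2ak1 call was lost with normexp (-0.90), the deposited value table (-0.30), an intensity trend (-0.41) and without either progenitor array. Of the 8 genes 7 were well above background on all 4 arrays, and eif2ak1 was not. An array of messenger RNA gives no measure of the phosphorylation or of protein.

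**Figure D4:**
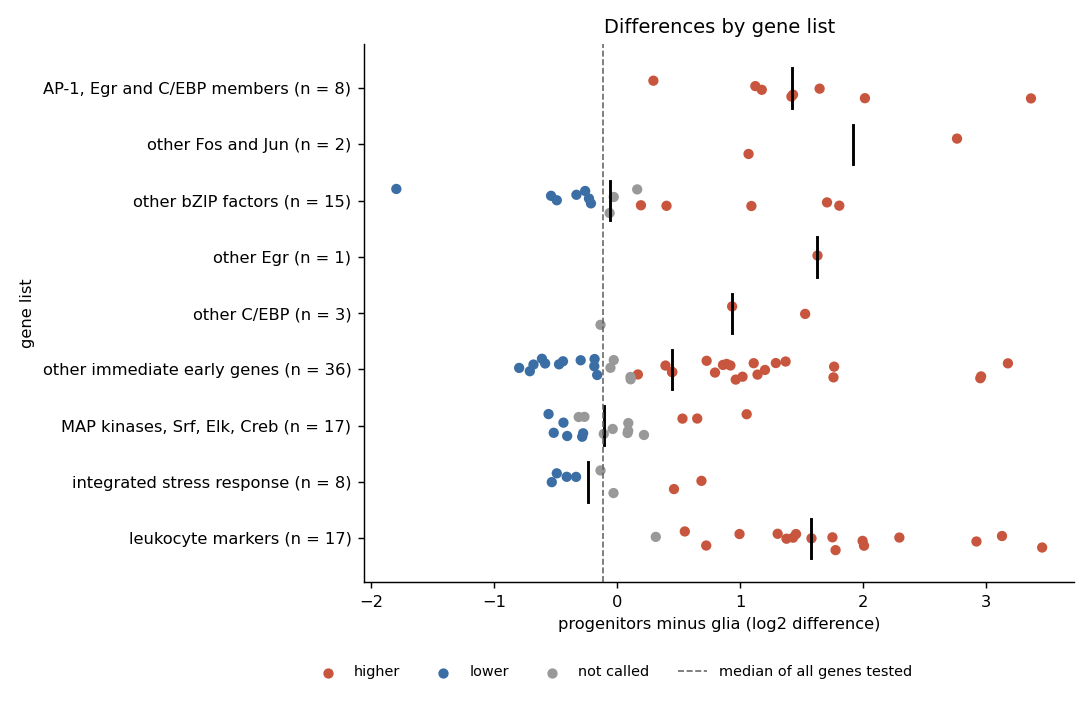
Log2 difference of progenitors minus glia for each gene tested on the lists named, with 1 point per gene, a bar for the list's median and the dashed line for the median of all genes (-0.11). The 8 members lie above 0 as the 17 leukocyte markers do, whereas the bZIP, MAP kinase and stress response lists lie on both sides of 0. Progenitor state markers are not drawn.

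Markers of microglia and other leukocytes, cells that also express AP-1, Egr and C/EBP genes, moved with the members. Of 18 such markers on the array 17 were tested, and 16 were called higher and none lower, with a median of 1.58 and a range from 0.31 to 3.46, and none of the 17 was below background in either group. The cytokine gene il1b was higher by 3.46 ± 0.04 and the complement gene c1qb by 2.92 ± 0.05. Summed over the list, the signal in units of the array's 75th percentile was 38.9 and 38.6 in glia and 99.1 and 92.5 in progenitors. The same sum over the 8 members was 52.3 and 53.3 in glia and 132 and 132 in progenitors. Such sums weigh bright probes most. Among the members, fosab stood at 4.31 in glia on the scaled log2 axis and atf3 at -0.64, so atf3 hardly counts. Markers of the progenitor state, ascl1a among them, also moved with the members. Of 10 tested, 8 were called higher and 1 lower, with a median of 1.76. Their summed signal was 18.3 and 18.6 in glia and 49.4 and 49.7 in progenitors. What part leukocyte RNA or the progenitor state had in the member values was not tested. Surface epithelium markers moved the other way, with 10 of 11 lower and a median of -4.02.

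The genes with the most similar profile to each member were taken as the 3 nearest of 5782 named genes over the 4 arrays. With only 2 groups, likeness over 4 arrays says little more than that the difference was of a similar size. Nearest to atf3 were pbk (3.37), serpinh1b (3.37) and ttk (3.40), where the value is each gene's own log2 difference. Nearest to egr2b were capgb (2.02), ctss1 (1.99) and stmn4l (1.98). For junba they were crabp2a (1.43), ctsh (1.41) and coro1a (1.43), the last of which is on the leukocyte list.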

How the data were processed

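The deposited scanner files hold spot intensity, made with Feature Extraction (version 9.5.3.1 in the file headers, 9.1 in the submitters' processing notes), on array design 015064 with danRer2 positions. Per the labels' protocols, RNA was taken from sorted cells with Trizol and 0.7 µg was labelled with 1 dye. In a deposited table of values, also intensity, 100% of the 21495 values on each array were equal to a background-subtracted spot signal within a relative tolerance of 0.001. It is therefore linear, uncentred and not scaled between arrays, with medians of 356, 360, 467 and 488.

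Here the deposited processed intensity was converted to log2, less the array's 75th percentile over non-control spots, with 1417 control spots and outlier spots left out (11, 23, 0 and 3; none of a member probe). Duplicate spots were averaged. Probes well above background on both arrays of at least 1 group were tested with limma 3.58.1 in R 4.3.3 (lmFit, eBayes, no trend; residual plus prior degrees of freedom 3.93; data.table, version 1.17.8). P-values were adjusted by Benjamini-Hochberg at 0.05. The brightest probe stood for its gene. Errors of differences are limma standard errors; arrays' small number limits precision.

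Probes were named by RefSeq accession (7323), current symbol (598) or older name (2352); 1639 kept the file's name and 9583 had none. Named genes were all members, up to 4 genes per list and direction by adjusted p, up to 2 per marker list, and the 3 nearest profiles per member; only those needed are printed. Members and lists were chosen with earlier results of these data known. The fit was tested on simulated data. Alternatives covered scaling, background, filter, variance trend, value table, probe choice, replicate block and single arrays. The slide as a block was not run, as all arrays shared 1 slide. Figures used matplotlib 3.10.9 and pandas 2.3.3.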

Additional observations from a re-analysis of the deposited data

How the results depend on the processing

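The 8 members stayed higher in every alternative, and of the differences of their probes under alternatives 162 kept and 2 lost the call, both of cebpd (0.07 with median scaling, 0.32 with normexp). Without 1 array at a time, genes called higher numbered 1614 to 1651 and lower 2130 to 2387, and the number of members called stayed at 8. Same-numbered arrays deviated with r = 0.06 over 15001 probes, 2 pairs only, so the numbers do not show a pairing; with the replicate block 1797 genes were higher and 2632 lower, and 8 members were called. Against 1949 higher and 2862 lower, median scaling gave 1294 and 4283, spike-in scaling 6555 and 160, and normexp 821 and 1152. The median of all genes moved from -0.11 to -0.34, 0.98 and -0.20, and the higher share of called genes from 40.5% to 23.2%, 97.6% and 41.6%. With spike-in scaling these genes turned from lower to higher: atf4a (0.61), mafaa (0.77), atf1 (0.89), map2k6 (0.54), mapk14b (0.69), mapk12a (0.81), mapk3 (0.82), nfkbiab (0.42), dusp6 (0.51), per2 (0.30), dusp1 (0.49), asns (0.57), vegfaa (0.76) and eif2ak1 (0.69). Normexp turned cebpa to -0.16 and the mean of its probes turned map2k1 to -0.00864. Scaling on the median or on spike-in controls subtracts another constant from each array, so it moved every gene's difference by the same amount. The turns with spike-in scaling follow from that common shift. Why the spike-in signals differed between groups was not tested, nor was the cause of the changes with normexp or with the mean of a gene's probes.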
